A study of Homo sapiens with 10 samples.

Results

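Tetraspanins are small membrane proteins that cross the lipid bilayer several times and gather integrins, immunoglobulin-domain proteins, proteases and one another into microdomains of the cell surface and of endosomes. They take part in cell adhesion, migration, membrane fusion and the formation of extracellular vesicles, and they are followed in prostate and other carcinomas because CD82 was described as a suppressor of metastasis. RNA-seq values of 10 tetraspanin genes, CD9, CD63, CD81, CD82, CD151, TSPAN1, TSPAN5, TSPAN8, TSPAN13 and TSPAN15, were read out of the 23170 gene entries of each deposited gene table. They were looked up by gene name, and each had 1 gene entry. The list was chosen with earlier results of these data known. The other 23 human tetraspanins were used for comparison.

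The 10 samples were cultures of the human prostate cancer cell line PC3 in 4 groups. PC3-Epi (2 samples) was a luciferase-expressing epithelial population of PC3, selected as colonies for brightness and shape. PC3-EMT14 (3 samples) was a mesenchymal population derived from PC3-Epi after co-culture with human macrophages, so all 4 lines derive from luciferase-expressing cells. The last groups were PC3-EMT14 cells transduced with lentivirus and selected to overexpress a zinc finger transcription factor of epithelia, either OVOL1 (PC3-EMT14-OVOL1, 3 samples) or OVOL2 (PC3-EMT14-OVOL2, 2 samples). The control of the OVOL lines was labelled PC3-EMT14, and an empty-vector line was not analysed here, so the transgene and the transduction with selection cannot be told apart. PC3-EMT14 is 1 isolated population, from which both OVOL lines derive.

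The deposited measure was FPKM, a count of sequenced fragments scaled to transcript length and to library size, so that levels can be compared between genes. The authors pooled the samples of a line into 1 FPKM value per line and table, so no replicate spread or SD could be computed from them. The authors' own test columns were not used here, so the differences below carry no p-value and were not tested. A gene was counted as higher or lower when its level differed by at least 2-fold and reached 1 FPKM in the higher line. Levels of the 4 lines set side by side came from separately normalized tables, in which the same line differed by a median factor between 1.00042 and 1.03216. The targeted genes followed the labels. OVOL1 mRNA was 11.3 FPKM in PC3-EMT14-OVOL1 against 0.0238 FPKM in PC3-EMT14, and OVOL2 mRNA was 831 FPKM in PC3-EMT14-OVOL2 against 0.370 FPKM. PC3-Epi held 4.25 FPKM of OVOL1 and 9.91 FPKM of OVOL2. CDH1, which encodes E-cadherin, was 50.6 FPKM in PC3-Epi against 1.00 FPKM in PC3-EMT14, and the mesenchymal filament gene VIM was 42.5 FPKM against 271 FPKM. The mesenchymal marker ZEB1 was 0.130 against 7.59 FPKM. CDH2 (11.3 against 18.0 FPKM) and FN1 (33.8 against 36.8 FPKM), also mesenchymal markers, were within 2-fold. With OVOL1, CDH1 was 16.2 against 0.981 FPKM, but VIM (log2 ratio -0.53), ZEB1 (-0.81), KRT8 (0.58) and KRT18 (0.45) were within 2-fold. With OVOL2, CDH1 was 39.2 against 0.971 FPKM, and VIM (-1.77) and ZEB1 (-2.05) were lower. KLK3, which encodes prostate-specific antigen, was listed at 0 in every line. All 12 macrophage markers examined were under 1 FPKM in every line, with a summed level between 0.357 and 0.504 FPKM.

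Of the 10 tetraspanins, 3 differed by 2-fold or more from PC3-EMT14 in at least 1 other line. TSPAN8 and CD82 were higher in PC3-EMT14 than in PC3-Epi, TSPAN8 was lower with either OVOL factor, and TSPAN1 was higher with OVOL2. The other 7, namely CD9, CD63, CD81, CD151, TSPAN5, TSPAN13 and TSPAN15, stayed within 2-fold of PC3-EMT14 in the 3 other lines, which was also the case for most genes: 7.37% of all genes compared were higher and 8.34% lower in PC3-Epi by this rule, 2.43% and 1.54% with OVOL1, and 4.42% and 2.93% with OVOL2. The median size of the log2 ratio was larger for the 10 tetraspanins than for all genes in each of these comparisons. It was 0.66 against 0.36, 0.25 against 0.15 and 0.34 against 0.21. For the other tetraspanins that reached 1 FPKM it was 0.50, 0.17 and 0.17, the last below that of all genes. Because the 10 were chosen with earlier results known, their medians are not a result about the family. Between the lowest and the highest line, the level spanned 72.3-fold for TSPAN8, 2.97-fold for CD82 and 2.52-fold for TSPAN1, but 1.68-fold for TSPAN5, 1.65-fold for CD151, 1.63-fold for CD63, 1.56-fold for CD9, 1.19-fold for TSPAN13 and TSPAN15 and 1.12-fold for CD81.

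The DNA upstream of the 3 tetraspanins whose level differed by 2-fold or more is shown next, with that of TSPAN13 as a member that stayed within 2-fold. The letters are from RefSeq promoter windows, placed by an exact and single match on hg19 and read 5′ to 3′ on the strand of the gene. Each line ends where the deposited gene begins, so the CD82, TSPAN1 and TSPAN13 windows are shorter than 250 bases. Capitals mark an E-box, CACCTG on either strand, the sequence bound by the mesenchymal repressor ZEB1.
TSPAN8: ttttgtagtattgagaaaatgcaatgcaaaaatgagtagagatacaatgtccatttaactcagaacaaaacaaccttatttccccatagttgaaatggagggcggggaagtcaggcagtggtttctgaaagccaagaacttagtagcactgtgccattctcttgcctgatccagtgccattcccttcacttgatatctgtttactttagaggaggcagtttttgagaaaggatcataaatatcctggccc
CD82: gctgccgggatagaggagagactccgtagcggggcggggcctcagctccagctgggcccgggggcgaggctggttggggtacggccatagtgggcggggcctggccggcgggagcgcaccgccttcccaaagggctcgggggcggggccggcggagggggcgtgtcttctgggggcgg
TSPAN1: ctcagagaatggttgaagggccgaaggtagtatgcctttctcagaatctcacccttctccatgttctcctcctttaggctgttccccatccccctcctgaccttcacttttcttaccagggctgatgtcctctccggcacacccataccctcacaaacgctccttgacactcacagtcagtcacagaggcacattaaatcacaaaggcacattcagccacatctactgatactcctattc
TSPAN13: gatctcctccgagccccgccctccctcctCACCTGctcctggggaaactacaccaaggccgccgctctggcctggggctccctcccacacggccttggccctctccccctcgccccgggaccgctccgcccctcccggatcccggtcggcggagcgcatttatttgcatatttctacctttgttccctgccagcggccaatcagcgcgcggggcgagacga

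The TSPAN8 stretch lies on the minus strand at chr12:71551780-71552029, next to the deposited gene at chr12:71518877-71551779. CD82 lies on the plus strand, with the stretch at chr11:44586963-44587140 before the gene at chr11:44587141-44641315. The TSPAN1 stretch at chr1:46640509-46640748 precedes the plus-strand gene at chr1:46640749-46651634. For TSPAN13 the stretch at chr7:16793130-16793350 precedes the plus-strand gene at chr7:16793351-16824161. Over the whole 250-base windows, GC content was 40.8% for TSPAN8, 77.2% for CD82, 51.2% for TSPAN1 and 70.0% for TSPAN13, where the quartiles of all 35116 RefSeq windows were 46.4%, 58.0% and 68.0%. The 3 genes that differed between lines thus ranged from below the lower quartile to above the upper one. RefSeq windows were found for 8 members, 19 windows in all, and CD81 and CD151 had no entry. An E-box was present in 5 of the 19 windows, belonging to CD9, CD63 and TSPAN13, against 17.5% of all windows. CD9 and CD63 had several windows each, some of CD63 overlapping, so the 19 windows are not independent. The TSPAN13 E-box starts 221 bases before the RefSeq start site. The OVOL2 consensus named in the study's text was present in 0 of the 19 windows and in 0.877% of all. A match here is a match of letters and not a bound site, and its absence says only that these letters are not in the window.

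**Figure D1:**
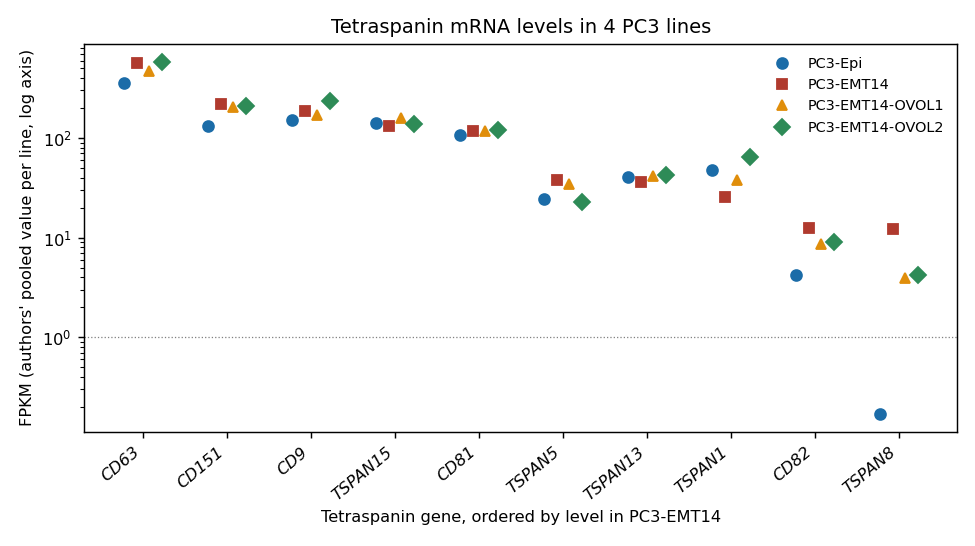
Level of each of the 10 tetraspanin genes in the 4 PC3 lines, in FPKM on a log axis, 1 point per gene and line (the authors' pooled value, no error available). CD63 is the highest gene in every line, and the widest vertical gap is that of TSPAN8, from 0.169 FPKM in PC3-Epi to 12.2 FPKM in PC3-EMT14. The dotted line marks 1 FPKM.

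Ranked by level, 5 of the 10 genes were at or above 100 FPKM in every line and 8 were at or above 10 FPKM in every line. CD63, the tetraspanin of late endosomes, lysosomes and exosomes, was the highest in each line, with 359 FPKM in PC3-Epi, 571 FPKM in PC3-EMT14, 471 FPKM in PC3-EMT14-OVOL1 and 585 FPKM in PC3-EMT14-OVOL2. It exceeded between 98.5% and 99.3% of the genes with at least 1 FPKM and made up between 35.6% and 42.3% of the summed level of the 10 genes. CD151, CD9, TSPAN15 and CD81 filled the next places in every line, in an order that changed between lines. CD9 had rank 2 in PC3-Epi and PC3-EMT14-OVOL2, and rank 3, after CD151, in the other lines. The neighbouring levels of TSPAN5 and TSPAN13 in PC3-EMT14, 38.1 and 36.0 FPKM, and those of CD82 and TSPAN8 there, 12.5 and 12.2 FPKM, were too close to be ordered without a replicate spread. CD82 and TSPAN8 were the lowest 2 in every line.

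The summed level of the 10 genes was 1010 FPKM in PC3-Epi, 1351 FPKM in PC3-EMT14, 1249 FPKM in PC3-EMT14-OVOL1 and 1429 FPKM in PC3-EMT14-OVOL2. PC3-Epi was the lowest of the 4 lines by this sum, and CD63 and CD151 were each lowest there. All 33 tetraspanins summed to 1188, 1546, 1433 and 1618 FPKM in the same order, of which the 10 genes made up between 85.0% and 88.3%.

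The first comparison set the epithelial line PC3-Epi against the mesenchymal line PC3-EMT14. In the deposited data the PC3-Epi group was named pc3, and was read as PC3-Epi from the name of the comparison. The names of the other groups ended in II_trim, a mark whose meaning is not known here. Whatever this mark stands for cannot be told apart from the difference between PC3-Epi and PC3-EMT14. Of the 10 tetraspanins, 0 were higher in PC3-Epi by the 2-fold rule, against 7.37% of the 12441 genes with at least 1 FPKM in the higher line, and 2 were lower, against 8.34% of those genes. TSPAN8 and CD82 were the 2 lower genes. The median log2 ratio of PC3-Epi over PC3-EMT14 was -0.47 for the 10 genes and -0.01 for all genes compared, and 7 of the 10 ratios were below 1. Without replicate values the medians describe the lines and are not a test.

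TSPAN8, a tetraspanin known as a surface antigen of gastrointestinal carcinomas, showed the widest difference of the 10. Its level was 0.169 FPKM in PC3-Epi and 12.2 FPKM in PC3-EMT14, a log2 ratio of -6.18, or 72.3-fold lower in the epithelial line. TSPAN8 was thus the only one of the 10 genes under 1 FPKM in any line, and in PC3-EMT14 it exceeded 51.8% of expressed genes. The number of reads behind the 0.169 FPKM is not known. TSPAN8 is also a gene that the study had picked from arrays of these lines, so its direction is not an independent observation. The study's array list held genes that were also reversed by ZEB1 knockdown. It reported that most of that list changed with OVOL1 and with OVOL2. The TSPAN8 levels of the OVOL lines are therefore not an independent observation either.

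CD82, the metastasis suppressor also called KAI1, was 4.19 FPKM in PC3-Epi and 12.5 FPKM in PC3-EMT14, a log2 ratio of -1.57. The mesenchymal line therefore had 2.97-fold more CD82 mRNA than the epithelial line. CD82 exceeded 22.0% of expressed genes in PC3-Epi and 52.5% in PC3-EMT14.

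The integrin-binding and vesicle-associated tetraspanins were listed at lower levels in PC3-Epi, by less than 2-fold. CD151, which binds laminin-binding integrins, was 133 FPKM in PC3-Epi and 219 FPKM in PC3-EMT14 (log2 ratio -0.72). CD63 was 359 and 571 FPKM (-0.67), and CD9, which associates with immunoglobulin-domain proteins and acts in sperm and egg fusion, was 151 and 186 FPKM (-0.30). CD81, a tetraspanin of many cell types that also acts in B cells, differed least among these, with 108 and 118 FPKM (-0.13). The 2 levels of CD81 were too close to be ordered. TSPAN5 and TSPAN15 both bind the shedding protease ADAM10 and steer its traffic. TSPAN5 was 24.4 FPKM in PC3-Epi and 38.1 FPKM in PC3-EMT14 (-0.65). TSPAN15 was 142 and 132 FPKM (0.10), too close to be ordered without a replicate spread. TSPAN1 was 47.4 and 25.5 FPKM (0.89), the highest ratio of the 10 and just inside the 2-fold limit, and TSPAN13 was 40.5 and 36.0 FPKM (0.17).

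**Figure D2:**
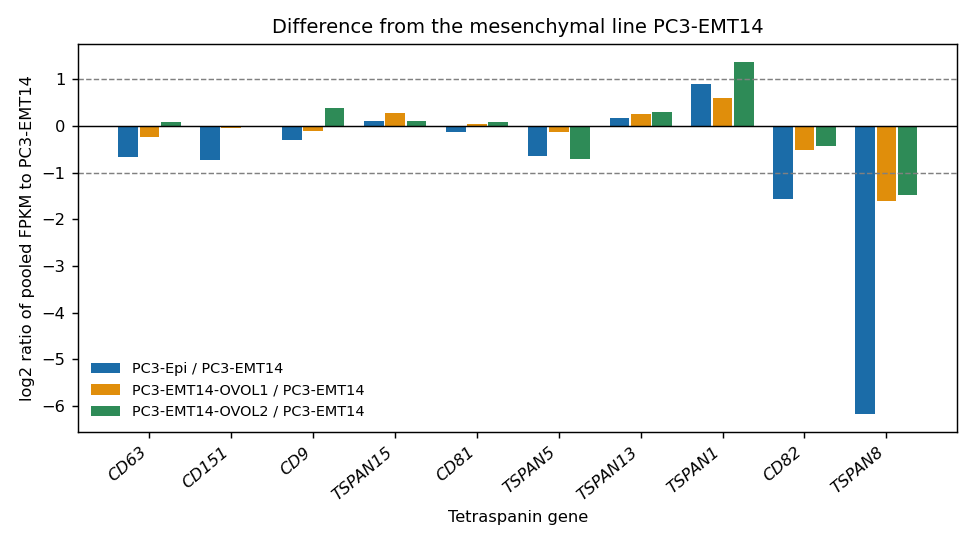
Log2 ratio of pooled FPKM to PC3-EMT14 for each of the 10 tetraspanins in the 3 other lines, 1 bar per gene and line, with the 2-fold limits dashed and no error available. TSPAN8 is past the lower limit in all 3 lines, CD82 in PC3-Epi, and TSPAN1 is past the upper limit in PC3-EMT14-OVOL2.

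The next comparisons asked what overexpression of OVOL1 or OVOL2 changed in the mesenchymal line. Both used the same PC3-EMT14 samples, so their values are given side by side and their likeness is not read as a result. With OVOL1, 0 of the 10 tetraspanins were higher by the 2-fold rule, against 2.43% of 12197 genes, and 1 was lower, against 1.54%. With OVOL2, 1 was higher, against 4.42% of 12307 genes, and 1 was lower, against 2.93%. The median log2 ratio to PC3-EMT14 was -0.08 for the 10 genes with OVOL1, where that of all genes was -0.0018, and 0.08 with OVOL2, where that of all genes was -0.04.

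TSPAN8 was the lower gene in both comparisons. Its level was 3.90 FPKM in PC3-EMT14-OVOL1 against 12.0 FPKM in PC3-EMT14 (log2 ratio -1.62), and 4.26 FPKM in PC3-EMT14-OVOL2 against 11.8 FPKM (-1.47). Both OVOL lines were thus 3.07-fold and 2.78-fold under the mesenchymal line, and both stayed above the 0.169 FPKM of PC3-Epi. TSPAN8 exceeded 21.3% of expressed genes in PC3-EMT14-OVOL1 and 23.9% in PC3-EMT14-OVOL2. CD82 was 8.59 FPKM against 12.2 FPKM with OVOL1 (-0.51) and 8.93 FPKM against 12.1 FPKM with OVOL2 (-0.43), within 2-fold in each and between the levels of PC3-Epi and PC3-EMT14.

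TSPAN1, a tetraspanin found in several epithelial cancers, was the higher gene with OVOL2, at 64.3 FPKM against 24.7 FPKM in PC3-EMT14, a log2 ratio of 1.38 or 2.60-fold. With OVOL1 it was 37.9 FPKM against 25.0 FPKM (0.60), within 2-fold. The 4 lines ran from 25.5 FPKM in PC3-EMT14 over PC3-EMT14-OVOL1 and the 47.4 FPKM of PC3-Epi to PC3-EMT14-OVOL2, which was the highest. TSPAN1 exceeded 72.8% of expressed genes in PC3-EMT14 and 89.6% in PC3-EMT14-OVOL2. An annotated pair of genes on the opposite strand, P3R3URF and P3R3URF-PIK3R3, overlaps the start of TSPAN1 on hg19, and whether the reads were counted by strand is not given in the sources used here.

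Among the abundant members, CD9 was 182 FPKM in PC3-EMT14 and 169 FPKM with OVOL1 (log2 ratio -0.11), and 180 FPKM and 235 FPKM with OVOL2 (0.39). CD63 was 559 and 471 FPKM in the OVOL1 comparison (-0.25) and 553 and 585 FPKM in the OVOL2 comparison (0.08). CD9 and CD63 thus each stood below PC3-EMT14 with OVOL1 and above it with OVOL2, by less than 2-fold. Without a replicate spread, differences as small as that of CD63 with OVOL2 cannot be given a direction. CD81 was 116 and 119 FPKM (0.03) with OVOL1 and 115 and 121 FPKM (0.08) with OVOL2. CD151 was 214 and 207 FPKM (-0.05) with OVOL1 and 212 and 208 FPKM (-0.03) with OVOL2, where the sign turned to 0.01 when ratios were centred on the median of all genes. CD81 and CD151 were the 2 members closest to no difference in either OVOL line.

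The ADAM10-binding pair, TSPAN5 and TSPAN15, had ratios of opposite sign in both OVOL lines, with no replicate spread to order the small differences. TSPAN5 was 37.3 FPKM in PC3-EMT14 and 34.2 FPKM with OVOL1 (log2 ratio -0.12), and 36.9 and 22.7 FPKM with OVOL2 (-0.70), the last close to its 24.4 FPKM in PC3-Epi. TSPAN15 was 130 and 157 FPKM with OVOL1 (0.28), and 128 and 137 FPKM with OVOL2 (0.10). TSPAN13 was 35.3 and 42.0 FPKM with OVOL1 (0.25), and 34.9 and 42.9 FPKM with OVOL2 (0.30). TSPAN13 was listed higher in all 3 lines other than PC3-EMT14, by a small margin. These ratios share the same PC3-EMT14 samples, and without a replicate spread they cannot be given a direction.

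The direct comparison of PC3-EMT14-OVOL2 with PC3-EMT14-OVOL1 had 0 of the 10 genes higher and 0 lower by the 2-fold rule, against 1.90% and 1.17% of 12188 genes. The median log2 ratio was 0.06 for the 10 genes and -0.04 for all genes. TSPAN1 had the highest ratio, with 64.2 FPKM in PC3-EMT14-OVOL2 and 37.5 FPKM in PC3-EMT14-OVOL1 (0.78), followed by CD9, with 235 and 167 FPKM (0.50), and CD63, with 585 and 466 FPKM (0.33). TSPAN5 had the lowest, with 22.7 and 33.9 FPKM (-0.58). TSPAN8 was 4.26 and 3.86 FPKM (0.14) and CD82 was 8.93 and 8.49 FPKM (0.07), so the 2 genes that stood apart between PC3-Epi and PC3-EMT14 were at like levels in both OVOL lines. The lines were made with different construct systems and differed in transgene level, so factor and dose cannot be told apart.

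**Figure D3:**
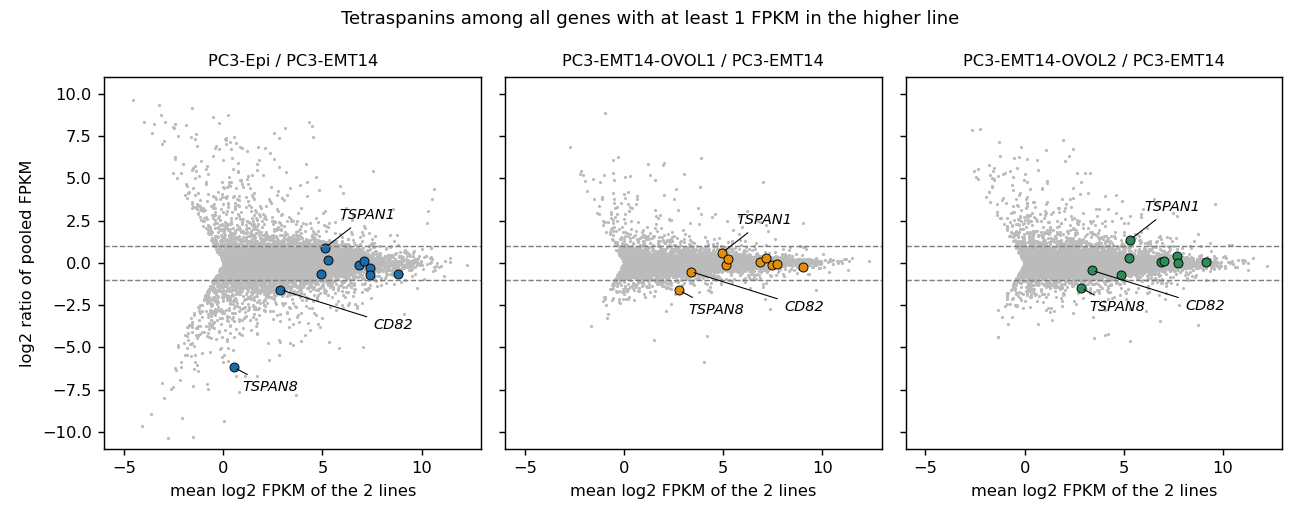
Log2 ratio of pooled FPKM against the mean log2 FPKM of the 2 lines, for all genes with at least 1 FPKM in the higher line and a value above 0 in both (grey) and the 10 tetraspanins (coloured), in the 3 comparisons with PC3-EMT14. Dashed lines mark 2-fold. Most tetraspanins lie at the right, among the most abundant genes and inside the 2-fold limits, with TSPAN8 below them in each panel.

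Of the other 23 tetraspanins, 11 were under 1 FPKM in every line, namely TSPAN7, TSPAN11, TSPAN14, TSPAN16, TSPAN19, TSPAN32, CD37, CD53, UPK1A, UPK1B and PRPH2. CD37 and CD53 are tetraspanins of leukocytes, the uroplakins UPK1A and UPK1B belong to urothelium, and PRPH2 to photoreceptors. Between PC3-Epi and PC3-EMT14, 12 of the 23 reached 1 FPKM in the higher line, of which 2 were higher and 2 lower in PC3-Epi by the 2-fold rule. TSPAN2 was 5.09 FPKM in PC3-Epi and 0.184 FPKM in PC3-EMT14 (log2 ratio 4.79), and TSPAN18 was 1.80 and 0.254 FPKM (2.82). TSPAN9 was 1.56 and 5.24 FPKM (-1.75), and TSPAN10, another ADAM10-binding tetraspanin, was 1.39 and 3.80 FPKM (-1.45). TSPAN2 and TSPAN18 thus differed in the direction opposite to TSPAN8. With OVOL1 and with OVOL2, 10 of the 23 reached 1 FPKM and 0 of these differed by 2-fold. TSPAN2 stayed under 1 FPKM and so was not counted. It was 0.654 FPKM with OVOL1 against 0.180 FPKM in PC3-EMT14 (log2 ratio 1.86), and 0.678 FPKM with OVOL2 against 0.178 FPKM (1.93).

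Over all 33 tetraspanins, the 2-fold rule called 2 higher and 4 lower of 22 compared in PC3-Epi, 0 higher and 1 lower of 20 with OVOL1, and 1 higher and 1 lower of 20 with OVOL2. Over all genes, 7.37% were higher and 8.34% lower in PC3-Epi, 2.43% and 1.54% with OVOL1, and 4.42% and 2.93% with OVOL2. The 6 ADAM10-binding members were TSPAN5, TSPAN10, TSPAN14, TSPAN15, TSPAN17 and TSPAN33, of which TSPAN15 was the most abundant in every line. ADAM10 itself was 14.0 FPKM in PC3-Epi against 12.4 FPKM in PC3-EMT14 (log2 ratio 0.17), 12.1 and 11.9 FPKM with OVOL1 (-0.03), and 12.0 and 10.7 FPKM with OVOL2 (-0.17). The level of the protease was therefore within 2-fold in every comparison, like those of TSPAN5, TSPAN15, TSPAN17 and TSPAN33.

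**Figure D4:**
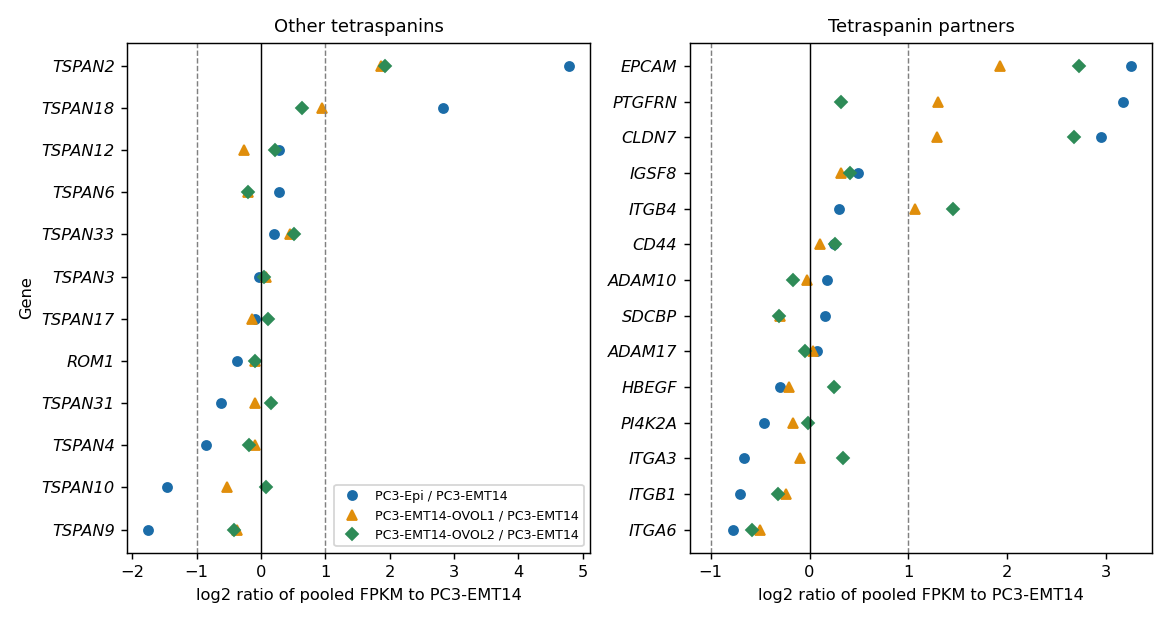
Log2 ratio of pooled FPKM to PC3-EMT14 for the other tetraspanins that reached 1 FPKM in a line (left) and for 14 known partners of tetraspanins (right), 1 point per gene and line, dashed lines at 2-fold. EPCAM, PTGFRN and CLDN7 lie furthest to the right among the partners in PC3-Epi, and TSPAN2 does so among the tetraspanins.

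Among the genes of proteins that tetraspanins bind, EPCAM and CLDN7 were higher in each line other than PC3-EMT14. Of 14 known partners, all at or above 1 FPKM, 3 were higher and 0 lower in PC3-Epi than in PC3-EMT14, 4 and 0 with OVOL1, and 3 and 0 with OVOL2. The shares of all genes were 7.37% higher and 8.34% lower in PC3-Epi, 2.43% and 1.54% with OVOL1, and 4.42% and 2.93% with OVOL2, and the partners were a list chosen with these data known. EPCAM, an epithelial adhesion protein found with CLDN7, CD9 and TSPAN8 in tetraspanin complexes, was 224 FPKM in PC3-Epi and 23.4 FPKM in PC3-EMT14 (log2 ratio 3.26), with ratios of 1.93 with OVOL1 and 2.73 with OVOL2. The tight junction gene CLDN7 was 92.3 and 11.9 FPKM (2.96), with 1.29 and 2.68. In each of the 3 other lines EPCAM and CLDN7 were thus higher, and TSPAN8 lower, than in PC3-EMT14. PTGFRN, an immunoglobulin-domain protein that binds CD9 and CD81, was 19.3 and 2.14 FPKM (3.17), and 5.15 and 2.09 FPKM with OVOL1 (1.30), but 2.59 and 2.07 FPKM with OVOL2 (0.32). IGSF8, its close relative with the same partners, stayed within 2-fold (0.49, 0.31 and 0.41 in PC3-Epi, OVOL1 and OVOL2).

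The integrin subunits that bind CD151 differed among themselves. ITGB4, the beta subunit of hemidesmosomes, was 125 FPKM in PC3-Epi and 102 FPKM in PC3-EMT14 (log2 ratio 0.30), but 209 and 99.4 FPKM with OVOL1 (1.07) and 269 and 98.3 FPKM with OVOL2 (1.45). The alpha subunit ITGA6 had ratios of -0.77, -0.50 and -0.59 in PC3-Epi, with OVOL1 and with OVOL2, and ITGB1 had -0.70, -0.24 and -0.32. ITGA3 was 93.7 FPKM in PC3-Epi and 148 FPKM in PC3-EMT14 (-0.66), with -0.09 in PC3-EMT14-OVOL1 and 0.34 in PC3-EMT14-OVOL2. In PC3-Epi, CD151, ITGA3, ITGA6 and ITGB1 were each lower than in PC3-EMT14 by less than 2-fold.

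The isoform tables held 15 entries for the 10 genes, and 7 genes had 1 entry each. CD151 had 4 entries, and the same one was the largest in every line, with 47.1% of the gene in PC3-Epi, 49.7% in PC3-EMT14, 49.6% in PC3-EMT14-OVOL1 and 50.9% in PC3-EMT14-OVOL2. The next CD151 entry carried 39.2%, 36.9%, 37.1% and 37.9% in the same order, so the makeup of CD151 mRNA was alike in the 4 lines. Of the 2 CD63 entries, 1 was listed at 0 in every line. Of the 2 CD82 entries, 1 was listed at 0.0924 FPKM in PC3-Epi and at 0 in the other lines, so the CD82 difference was that of the other entry. The entries carry the locus of the gene and no exons, so the transcripts behind them were not identified here.

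The genes whose 3 log2 ratios to PC3-EMT14 lay closest to those of the 3 most variable tetraspanins were sought among 12452 genes with at least 1 FPKM in a line. The distance is Euclidean, in log2 units, over 3 ratios that share a denominator, and it describes likeness over 4 lines only. For TSPAN8 they were ANGPTL2 (distance 0.361), MLC1 (0.403) and BCL2A1 (0.507). For CD82 they included BFSP1 (0.100) and DISP1 (0.100), and for TSPAN1 they were C1orf38 (0.108), C19orf21 (0.118) and ZFP36 (0.124). TSPAN8 thus had no neighbour as close as the nearest ones of CD82 and TSPAN1. ANGPTL2, which encodes a secreted angiopoietin-like protein, had log2 ratios of -6.42 in PC3-Epi, -1.84 with OVOL1 and -1.34 with OVOL2, next to -6.18, -1.62 and -1.47 for TSPAN8.

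On hg19, the remaining members lay on chromosome 12 for CD9 (chr12:6309555-6347427, plus strand) and CD63 (chr12:56119230-56122910, minus strand), and on chromosome 11 for CD81 (chr11:2398547-2418649, plus strand) and CD151 (chr11:832952-838835, plus strand). TSPAN5 lay at chr4:99391518-99579812 on the minus strand and TSPAN15 at chr10:71211226-71267423 on the plus strand. Annotated protein-coding or long noncoding genes on the opposite strand overlapped CD63, CD81, CD82, CD151, TSPAN1 and TSPAN5, and none on either strand overlapped CD9, TSPAN8, TSPAN13 or TSPAN15. For CD82 the overlap was with antisense RNAs. Overlap was taken between whole gene intervals and not exons. Whether reads counted for CD82 include reads of these RNAs was therefore not checked.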

How the data were processed

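The authors sequenced 50-base paired-end reads, aligned them with TopHat to UCSC hg19 and compared pairs of lines with Cuffdiff, using upper-quartile normalization, fragments compatible with known transcripts, and corrections for multiple mapping and sequence bias. They deposited 8 tables (genes and isoforms in 4 comparisons), with 1 FPKM value per line, which Cuffdiff had made from the pooled samples of that line. The depth per sample is unknown, and no interval, SD or p-value could be computed. The deposited comparison columns (fold change, test statistic, p-value, q-value, significance and status) were not used. Columns of per-sample values left unused numbered 0.

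Ratios were formed within a table, without a pseudocount, in Python 3.11.15 with numpy 2.4.6 and pandas 2.3.3, and plots with matplotlib 3.10.9. The 2-fold limit is that of the study's methods, with at least 1 FPKM required in the higher line. The call rule was tested on simulated data. Alternatives were other floors and limits, median centring, a pseudocount of 1, summed isoforms, and line means over tables. The genes named were the 10 tetraspanins, other tetraspanins and partners past 2-fold in a comparison with PC3-EMT14 (at most 8 per list), the 3 nearest genes of the 3 most variable tetraspanins, and the marker genes, some of which are not reported here. Other genes given with values were picked from the lists after their values were seen: ADAM10, IGSF8, ITGA3, ITGA6 and ITGB1 among the partners, PDCD6IP, FLOT1 and RAB27B among the vesicle genes, and TSPAN14. The tetraspanins and the gene lists were chosen with earlier results of these data known. Strand and overlapping genes came from GENCODE on the same assembly. Promoter windows and their start sites came from RefSeq (GRCh38.p14), and the 250 bases before the start were searched.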

Additional observations from a re-analysis of the deposited data

How the results depend on the processing

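No paired analysis was possible because the tables hold 1 pooled value per line and no column carries a replicate number, and for the same reason no replicate could be left out. Counts of tetraspanins past the limit, in either direction, are given in the order PC3-Epi, OVOL1 and OVOL2 against PC3-EMT14, then OVOL2 against OVOL1. The main counts were 2, 1, 2 and 0 of the 10 genes and 6, 1, 2 and 0 of all 33. Without a floor on FPKM, the 33 gave 12, 7, 11 and 6. With a 1.5-fold limit, the 10 gave 6, 2, 3 and 1 and the 33 gave 12, 2, 3 and 2. With a 4-fold limit, the 10 gave 1, 0, 0 and 0 and the 33 gave 3, 0, 0 and 0. Each of these shifts follows from the limit or floor itself. A floor of 5 FPKM, median centring, a pseudocount of 1, summed isoforms and means over tables kept each count within 1.5 times. Of 160 recomputed log2 ratios of the 10 genes, 1 changed sign, that of CD151 with OVOL2, from -0.03 to 0.01. Depth is unknown, so the lowest levels, such as 0.169 FPKM of TSPAN8 in PC3-Epi, have no known precision.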

Other observations

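Tetraspanins are sorted into extracellular vesicles by proteins of the endosome. Of 10 genes of vesicle formation and endosomal sorting, 9 reached 1 FPKM, SMPD3 being the exception, and 0 differed by 2-fold in any of the 4 comparisons. Over all genes, 7.37% were higher and 8.34% lower in PC3-Epi, 2.43% and 1.54% with OVOL1, 4.42% and 2.93% with OVOL2, and 1.90% and 1.17% between the OVOL lines, so a count of 0 among 9 is near these shares and is not a result about the list. Their median log2 ratio was -0.24 in PC3-Epi, -0.08 with OVOL1 and -0.03 with OVOL2. PDCD6IP, which encodes the endosomal sorting protein ALIX, was 35.1 FPKM in PC3-Epi and 53.8 FPKM in PC3-EMT14 (log2 ratio -0.61), the lowest ratio of the list there, and FLOT1 was 56.8 and 34.3 FPKM (0.73), the highest. RAB27B, a small GTPase of vesicle secretion, was 24.3 FPKM in PC3-EMT14-OVOL2 and 14.0 FPKM in PC3-EMT14 (0.79), within 2-fold.

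TSPAN14, an ADAM10-binding tetraspanin, was listed under 0.01 FPKM in every line, at 0.00935 FPKM in PC3-Epi and 0.00276 FPKM in PC3-EMT14, although 2 isoform entries exist for it. Whether so low a value is a level or a failed estimate was not tested.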
